A study of Mus musculus with 6 samples.

Results

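DNA replication and G1/S genes were followed as a list of 43 genes by RNA-seq in vascular smooth muscle cells (VSMCs) of the mouse, the contractile cells of the arterial wall. The members were picked by gene symbol from a table of 54532 genes, and all 43 were found there. The list holds the factors that load and activate the replicative helicase, the polymerases, the clamp and its loader, the single-strand binding complex RPA, enzymes of deoxynucleotide supply, the cyclins E with E2f1, and proteins that rebuild chromatin behind the fork.

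The 6 libraries formed 2 groups of 3. VSMCs labelled as wild type had received an adenoviral vector with either a control plasmid (Ad-Con) or an overexpression plasmid for pyruvate dehydrogenase kinase 4 (Ad-PDK4), an enzyme of mitochondria that switches off pyruvate dehydrogenase by phosphorylation. Per the study, the cells came from mouse abdominal aorta, were cultured over several passages, and were treated with angiotensin II in both groups after the vector, so cells without angiotensin II were not analysed here. Its methods also describe a serum-free interval for experiments in culture, while the labels give only growth medium with serum. The 3 libraries of a group are biological replicates per the study, although the labels do not say that they came from separate animals or cultures, so p-values measure the spread between these libraries.

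Before a cell copies its DNA, the origin recognition complex with CDC6 and CDT1 loads the MCM2-7 helicase onto origins in G1, a step called licensing. CDC45 and the GINS complex then join MCM2-7 to form the active CMG helicase, and polymerase alpha with its primase, the clamp PCNA and polymerases delta and epsilon follow it. Many of these genes are classic targets of E2F transcription factors, which are released when cyclin-dependent kinases phosphorylate RB, and their mRNAs mark cells that enter S phase. Adult VSMCs in the vessel wall rarely divide and regain proliferation in culture or after injury. In bulk RNA, fewer cells in S phase and less RNA per cell cannot be told apart.

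The libraries held 17588942 to 21861872 reads assigned to genes, and 16418 to 21339 of them per library fell on the 43 members. Values are FPKM, fragments scaled by gene length and library size, and tests are limma on log2(FPKM + 0.1) over 13423 genes with a mean of at least 0.5 FPKM, adjusted by Benjamini-Hochberg. Correlations across genes were 0.970 to 0.975 within groups and 0.923 to 0.928 between groups. Pdk4 itself was at 9.50, 10.4 and 10.1 FPKM in the Ad-Con libraries and lower, at 7.67, 7.40 and 7.38 FPKM, in the libraries labelled Ad-PDK4 (log2 fold change -0.42, limma adjusted p = 0.00114), so these values show no rise. The labels do not say whether the plasmid carries the mouse sequence, and these values may not measure the transgene. The group is therefore named by its label throughout. Of the smooth muscle markers only 3 of 8 reached the level for testing. Acta2 fell, at 78.0 ± 0.950 FPKM (SD, n = 3) in Ad-Con and 36.2 ± 2.40 in Ad-PDK4. Smtn (8.32 against 8.44 FPKM) and Lmod1 (0.720 against 0.570 FPKM) did not pass the test. Mylk (0.756 against 0.123 FPKM) was lower without overlap and was not tested. Myh11, Tagln, Cnn1 and Des, which define contractile smooth muscle, were near 0 in both groups and were not tested. Of these, Cnn1 (0.466 against 0.247 FPKM) and Des (0.186 against 0.0468 FPKM) were lower without overlap, while Myh11 and Tagln overlapped. The markers thus bear out the label only in part. All 6 fibroblast markers were tested, with a summed level of 1544 to 1667 FPKM in Ad-Con and 830 to 924 in Ad-PDK4, most of it Col1a1. Of the 6, 4 fell, while Dcn rose (log2 fold change 0.83, limma adjusted p = 4.04e-04) and Pdgfra had a value of -0.05 that did not pass. The macrophage genes Ptprc, Itgam, Tyrobp and C1qa and the endothelial genes Tie1, Emcn and Cldn5 had 0 reads in every library. The 8 macrophage markers summed to 15.0 to 17.9 FPKM in Ad-Con and 5.91 to 7.44 in Ad-PDK4, mostly Cd68. Of these, Cd68 fell (14.2 ± 1.78 against 4.24 ± 0.991 FPKM), while Lyz2 (1.51 against 1.98 FPKM) and Csf1r (0.258 against 0.640 FPKM) were higher without overlap, of which Lyz2 did not pass and Csf1r was not tested. The 7 endothelial markers summed to 0.582 to 0.737 FPKM in Ad-Con and 0.859 to 1.15 in Ad-PDK4, mostly Kdr. Kdr (0.536 against 0.919 FPKM) was higher without overlap and did not pass. Pecam1 (0.101 against 0.0651 FPKM) had the lower mean in Ad-PDK4 and was not tested. The part of these markers in the results on replication genes was not tested.

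Promoter sequence links several members. Of the 43 genes, 35 had at least 1 window in RefSeq's set of promoters (GRCm38.p6, 250 bases before to 50 after the start), 40 windows in all. The E2F letters TTTCCCGC, TTTGGCGC, TTTCGCGC or TTTGCCGC, read on both strands, where matches may overlap each other, were found in 13 of these 40 windows (32.5%) and in 2.27% of all 32851 windows. Counted by gene, 13 of the 35 members (37.1%) had a match, against 2.61% of all 27025 genes with a window and 4.76% of 9400 tested genes with one. The 13 members were Orc1, Cdc6, Cdt1, Mcm3, Mcm5, Mcm6, Mcm7, Gins3, Pola1, Pold1, Rfc3, Lig1 and Uhrf1. The letters CCAAT were found in 60.0% of member windows and 37.4% of all windows, and by gene in 62.9% of members and 43.1% of tested genes. TTTGAA, the CHR letters known from G2/M promoters, were found in 10.0% of member windows and 17.9% of all windows, and by gene in 11.4% of members and 13.8% of tested genes. A match is a description of these letters and not a measured site.

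The bases before the start are shown for 2 of the 13, 5′ to 3′ on the gene's strand with the E2F letters in capitals. Gins3 had the largest fall of members with a match, and Mcm5 the largest value above 0, which did not pass the test. The bases shown for Gins3 lie at chr8:95633309-95633558, plus strand, with the match 34 to 41 bases before the RefSeq start. Those for Mcm5 lie at chr8:75109259-75109508, plus strand, with a pair of overlapping matches.
Gins3: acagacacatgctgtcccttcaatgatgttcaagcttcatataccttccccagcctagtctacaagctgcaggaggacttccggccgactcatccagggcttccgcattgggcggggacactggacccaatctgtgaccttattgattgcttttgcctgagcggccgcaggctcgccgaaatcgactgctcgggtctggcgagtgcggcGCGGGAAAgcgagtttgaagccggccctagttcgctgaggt
Mcm5: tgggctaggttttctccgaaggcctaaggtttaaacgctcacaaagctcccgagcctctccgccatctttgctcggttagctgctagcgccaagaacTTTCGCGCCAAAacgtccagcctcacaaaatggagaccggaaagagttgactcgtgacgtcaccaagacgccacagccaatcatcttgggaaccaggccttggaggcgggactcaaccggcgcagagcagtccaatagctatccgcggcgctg

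Short stretches around a match are given for members on either side of the test. They were picked for holding the searched letters, so their likeness there was set by the search. Mcm6 and Mcm7 held further matches that are not shown. Orc1 (chr4:108579419-108579442, plus strand) and Cdc6 (chr11:98908005-98908028, plus strand) were below the level for testing, Mcm6 (chr1:128359737-128359760, minus strand) and Pola1 (chrX:93632278-93632301, minus strand) did not pass the test, and Mcm7 (chr5:138172033-138172056, minus strand) fell.
Orc1: ggttagtgGCGCGAAAagttttct
Cdc6: ggtggagaGCGGGAAAtcgcctgg
Mcm6: tggacgggTTTGGCGCgaagtagc
Pola1: atcacaggGCGCCAAAtgcactcc
Mcm7: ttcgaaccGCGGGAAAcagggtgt

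Of the 43 members, 40 reached the level for testing. In the libraries labelled Ad-PDK4, 4 rose and 12 fell at an adjusted p below 0.05, while 24 did not pass. Over all 13423 tested genes 21.8% were called higher and 20.8% lower, beside 10% and 30% of the tested members. The share of members called higher was below that of all genes in each of the 15 alternative fits, but the share called lower was above it in 10 and below it in 5. No member passed with a fold change of at least 2, a limit that 3.95% of all tested genes passed upwards and 2.68% downwards. The groups did not overlap for 5 members that were higher (12.5%, against 27.8% of all tested genes) and 16 that were lower (40%, against 26.5%). The median log2 fold change of the tested members was -0.26, against -0.00 for all tested genes, and 27 values were below 0 and 13 above.

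The counts moved when a library was left out. Without Ad-Con replicate 1 the test called 1 member higher and 6 lower (15.0% lower, against 16.8% of all genes), without Ad-Con replicate 2 it called 2 and 9 (22.5% against 17.7%), and without Ad-Con replicate 3 it called 3 and 4 (10.0% against 16.1%). Without Ad-PDK4 replicate 1 the counts were 1 and 12 (30% against 16.6%), without replicate 2 they were 3 and 7 (17.5% against 20.1%), and without replicate 3 they were 2 and 6 (15.0% against 19.1%). The share of members called lower thus stood above the background only without Ad-Con replicate 2 or Ad-PDK4 replicate 1, of the 6 fits. Rescaling to TPM gave 5 higher and 7 lower (17.5% against 18.1%), and quantile normalization gave 2 and 13 (32.5% against 23.3%). With no filter on level, Rpa1, Mcm7, Prim2, Tk1 and Chaf1b were still called lower and Ccne1 higher, and the other 10 calls were lost. Moderation without trend or robust lost the calls on Pcna, E2f1, Slbp, Rpa3 and Rrm2. With limma-voom on the recovered reads 18 members were called lower (45%, against 23.4% of all genes). These were the 12 with Cdt1, Gins2, Pola1, Pole, Rfc2 and Lig1 added. Mcm2 took the place of Pcna among the 4 called higher (10% against 24.0%). Of the 16 calls, 5 held in every alternative in which the gene was tested, namely Rpa1, Mcm7, Prim2, Tk1 and Ccne1.

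Summed over the 43 genes, the level was 248, 238 and 260 FPKM in Ad-Con replicates 1 to 3 and 230, 223 and 224 FPKM in Ad-PDK4 replicates 1 to 3. All 3 sums labelled Ad-PDK4 lay below all 3 of Ad-Con, at a ratio of 0.906. Most of this gap came from Rpa1 alone, with means of 33.3 FPKM in Ad-Con and 20.0 FPKM in Ad-PDK4. Rpa1 was at 29.9 FPKM in Ad-Con replicate 2 and 20.1 FPKM in Ad-PDK4 replicate 1. Without it the sums of these libraries would change order, so the lower sums do not show a fall across the list. On the TPM scale, where Ad-Con replicate 2 was at 754 and Ad-PDK4 replicate 1 at 758, the groups overlapped. Rpa1 had the highest mean FPKM of all members in Ad-Con and Pcna in Ad-PDK4, and Orc1, Cdc6 and Ccne2 were the lowest in both groups. Within Ad-Con, replicate 2 was the lowest of the 3 libraries for 26 of 43 members (60.5%, against 34.6% of all tested genes), and replicate 3 the highest for 25.

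**Figure D1:**
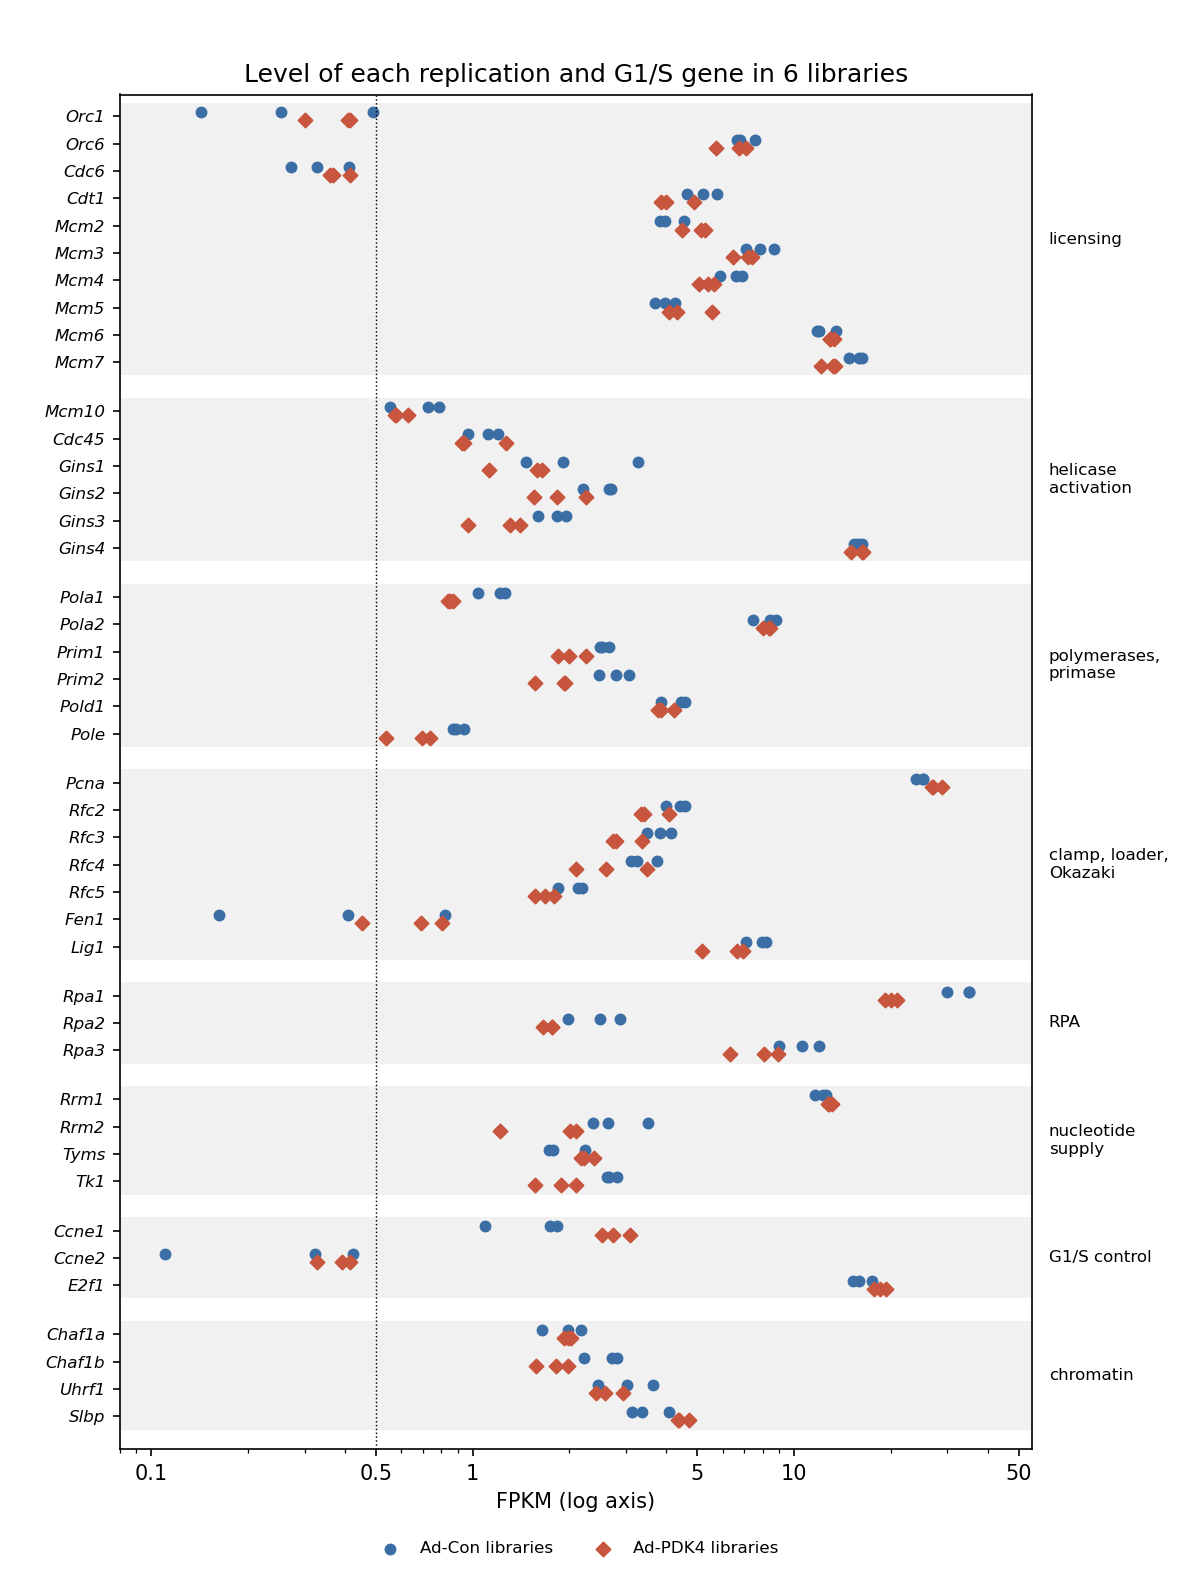
FPKM (log axis) of each of the 43 genes in the 3 Ad-Con libraries (circles) and the 3 Ad-PDK4 libraries (diamonds), grouped by role, with a dotted line at 0.5 FPKM, the level set for the mean of a tested gene. Levels ran from under 0.5 FPKM for Orc1, Cdc6 and Ccne2 to 35.0 FPKM for Rpa1, and for most genes the groups lay close together.

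In single-strand binding all 3 subunits of RPA, the complex that coats unwound DNA, fell (100%, against 20.8% of all tested genes). Of the 3 calls, only that on Rpa1 held in every alternative fit. Rpa1, the large DNA-binding subunit (chr11:75298166-75348324 on GRCm38), was at 35.0, 29.9 and 35.0 FPKM in Ad-Con replicates 1 to 3 and at 20.1, 20.9 and 19.2 FPKM in Ad-PDK4 replicates 1 to 3. The groups were far apart, with every Ad-PDK4 library below the lowest Ad-Con library. Its mean of 33.3 ± 2.96 FPKM in Ad-Con dropped to 20.0 ± 0.819 FPKM (SD, n = 3 each; log2 fold change -0.73, standard error 0.07, limma adjusted p = 1.75e-04), and 2036 to 3974 reads stood behind each value.

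Rpa2, the subunit phosphorylated under replication stress, was at 1.99, 2.87 and 2.49 FPKM in Ad-Con and 1.76, 1.66 and 1.77 FPKM in Ad-PDK4. The Ad-Con libraries were spread widely and the Ad-PDK4 libraries hardly at all, without overlap (log2 fold change -0.46, limma adjusted p = 0.0328). Rpa3, the smallest subunit, was at 10.6, 8.97 and 12.0 FPKM in Ad-Con and 8.90, 6.34 and 8.05 FPKM in Ad-PDK4, where the lowest Ad-Con value barely exceeded the highest Ad-PDK4 value (log2 fold change -0.44, limma adjusted p = 0.0494). Summed over the complex, RPA mRNA was at 47.5, 41.7 and 49.5 FPKM in Ad-Con and 30.7, 28.9 and 29.0 FPKM in Ad-PDK4, a ratio of 0.639 that Rpa1 dominates. The call on Rpa1 held without any of the 6 libraries. The call on Rpa2 was lost without Ad-Con replicate 2 (-0.34) or 3 (-0.44) or Ad-PDK4 replicate 1 (-0.48), 2 (-0.43) or 3 (-0.48), and that on Rpa3 without Ad-Con replicate 1 (-0.43) or 3 (-0.34), without Ad-PDK4 replicate 2 (-0.30) or 3 (-0.47), and on the TPM scale (-0.40).

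**Figure D2:**
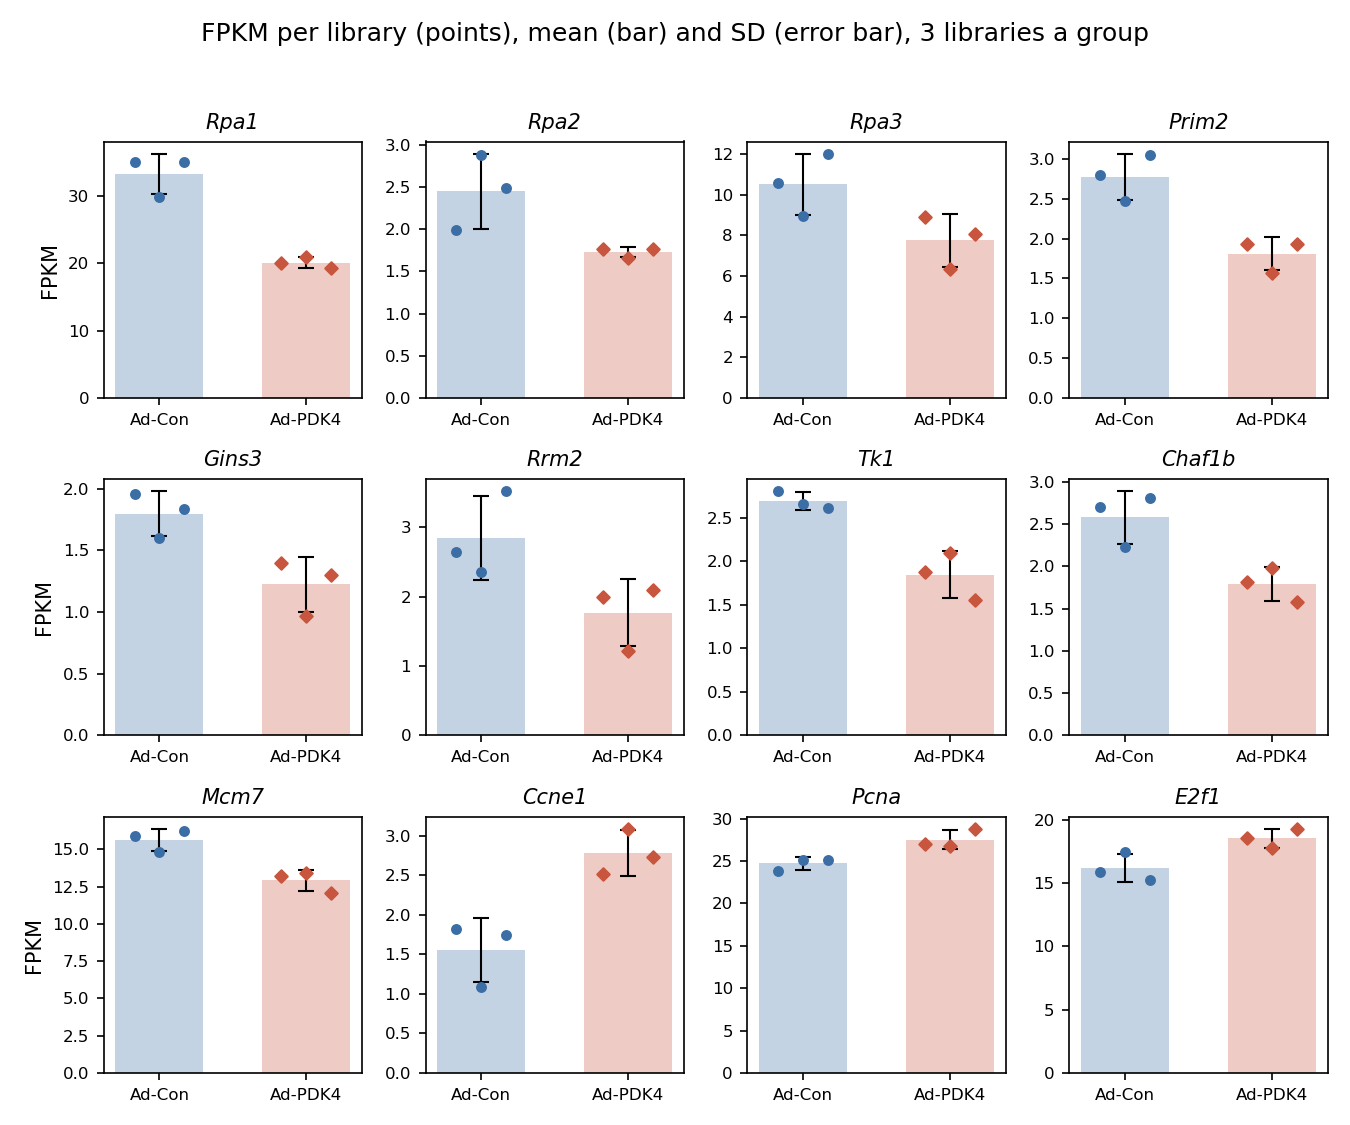
FPKM of 12 members in each library (points), with the group mean (bar) and SD (error bar), n = 3 a group, each panel on its own axis from 0. Rpa1 and Prim2 show wide gaps between the groups downwards and Ccne1 upwards, while the rises of Pcna and E2f1 are small beside their level.

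Few of the licensing factors passed the test. Of 8 tested members of this role 2 fell, Mcm4 and Mcm7 (25%, near the 20.8% of all tested genes), none rose, and the median log2 fold change was -0.13. MCM2-7 form a ring of 6 different subunits in equal numbers. Of their log2 fold changes 3 were above 0, none of which passed, and 3 below, and differences between the subunits were not tested. Mcm7 (chr5:138164583-138172422) was at 15.9, 14.8 and 16.2 FPKM in Ad-Con and 13.2, 13.4 and 12.1 FPKM in Ad-PDK4. All 3 Ad-PDK4 values lay below all 3 Ad-Con values (log2 fold change -0.28, standard error 0.06, limma adjusted p = 0.0103). Of its longest transcript, 52.5% was also found in other genes in stretches of 75 bases, mainly in Gm5487, so reads may be split between them and its level is uncertain.

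Mcm4 was at 5.89, 6.59 and 6.87 FPKM in Ad-Con and 5.40, 5.08 and 5.63 FPKM in Ad-PDK4, again without overlap (log2 fold change -0.26, limma adjusted p = 0.0350). This call was lost without Ad-Con replicate 2 (-0.24) or 3 (-0.21), without Ad-PDK4 replicate 1 (-0.26) or 2 (-0.22), and on the TPM scale (-0.22). Mcm2 pointed the other way, at 3.82, 3.96 and 4.56 FPKM in Ad-Con and 5.28, 5.13 and 4.48 FPKM in Ad-PDK4. Its groups overlapped through Ad-Con replicate 3 and Ad-PDK4 replicate 3, and the value of 0.26 did not pass (95% interval 0.04 to 0.49, limma adjusted p = 0.0639), although it passed without Ad-Con replicate 3 (0.34) or Ad-PDK4 replicate 3 (0.33) and on the TPM scale (0.31). Mcm5 had a log2 fold change of 0.21 (95% interval -0.07 to 0.50; 0.08 without Ad-PDK4 replicate 2), Mcm6 of 0.07 (-0.08 to 0.22) and Mcm3 of -0.16 (-0.37 to 0.05), and none of these passed. The summed level of the 6 subunits was 49.2, 48.1 and 54.1 FPKM in Ad-Con and 48.5, 49.6 and 45.7 FPKM in Ad-PDK4, with overlapping groups.

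Cdt1, which brings the helicase to the origin, was at 5.21, 4.66 and 5.78 FPKM in Ad-Con and 4.90, 3.86 and 4.01 FPKM in Ad-PDK4. One Ad-PDK4 library overlapped the Ad-Con range, and the log2 fold change of -0.29 did not pass (95% interval -0.56 to -0.02, limma adjusted p = 0.0803), but it did without Ad-PDK4 replicate 1 (-0.39). Orc6, a subunit of the origin recognition complex, had a log2 fold change of -0.10 (-0.33 to 0.12). Orc1, the largest subunit, and Cdc6, the loading ATPase, were present at traces. Orc1 had 18, 30 and 9 reads in Ad-Con and 19, 25 and 32 in Ad-PDK4. Fitted with no filter on level, the log2 values were 0.35 for Orc1 (limma adjusted p = 0.560) and 0.15 for Cdc6 (limma adjusted p = 0.702), and at this depth no difference was detectable.

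Among the factors that activate the helicase 1 of 6 members fell (16.7%, against 20.8% of all tested genes). Gins3, a GINS subunit whose promoter is shown above, was at 1.96, 1.60 and 1.83 FPKM in Ad-Con and 1.40, 0.970 and 1.30 FPKM in Ad-PDK4. Its groups did not overlap (log2 fold change -0.53, standard error 0.17, limma adjusted p = 0.0354). The call rested on 46 to 108 reads a library and was lost without Ad-Con replicate 1 (-0.47) or 3 (-0.51), or without Ad-PDK4 replicate 2 (-0.38) or 3 (-0.58). GINS subunits also act in equal numbers, but Gins4 stayed near 0 with a log2 fold change of 0.01 (95% interval -0.12 to 0.14), at 15.8 ± 0.443 FPKM in Ad-Con and 15.9 ± 0.727 in Ad-PDK4, several-fold above the other subunits. The difference between Gins3 and Gins4 was not tested.

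Gins1 was at 1.91, 1.47 and 3.27 FPKM in Ad-Con and 1.12, 1.58 and 1.64 FPKM in Ad-PDK4. The log2 fold change of -0.52 did not pass (95% interval -1.20 to 0.16), and without Ad-Con replicate 3, its highest library, it was -0.21. Gins2 was at -0.42 on the log2 scale (limma adjusted p = 0.0611) and passed without Ad-PDK4 replicate 1 (-0.55), but 67.3% of its exon bases lie under exons of Gse1 on the opposite strand, and whether counting used strand was not given in the sources used here. Cdc45, which completes the CMG helicase, had a log2 fold change of -0.07 (-0.49 to 0.36) and Mcm10, which helps to start it, of -0.18 (-0.73 to 0.37). Intervals this wide do not show that these genes were alike in the groups.

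In the polymerase role 2 of 6 members fell (33.3%, against 20.8% of all tested genes), and both were primase subunits. Primase lays down the RNA primers from which polymerase alpha begins. Prim2, its regulatory subunit (chr1:33453810-33669795), was at 2.80, 2.47 and 3.06 FPKM in Ad-Con and 1.93, 1.57 and 1.93 FPKM in Ad-PDK4. All 3 Ad-PDK4 values were clearly below the Ad-Con range (2.78 ± 0.291 against 1.81 ± 0.210 FPKM, log2 fold change -0.59, standard error 0.13, limma adjusted p = 0.00728), and the call held without any library. Prim1, the catalytic subunit, was at 2.53, 2.49 and 2.65 FPKM in Ad-Con and 2.26, 1.99 and 1.84 FPKM in Ad-PDK4, also without overlap (log2 fold change -0.32, limma adjusted p = 0.0439).

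The Prim1 call was lost without Ad-Con replicate 1 (-0.33), 2 (-0.34) or 3 (-0.30), without Ad-PDK4 replicate 2 (-0.31) or 3 (-0.26), and on the TPM scale (-0.29). Pola1, the catalytic subunit of polymerase alpha, was at 1.27, 1.04 and 1.21 FPKM in Ad-Con and 0.867, 0.849 and 0.837 FPKM in Ad-PDK4. Every Ad-PDK4 library was below every Ad-Con library, yet the log2 fold change of -0.42 did not pass (95% interval -0.79 to -0.05, limma adjusted p = 0.0701). Its partner Pola2 had a log2 fold change of 0.01 (-0.16 to 0.18). Pole, the catalytic subunit of the leading-strand polymerase epsilon, was likewise lower without overlap and without passing (log2 fold change -0.41, 95% interval -0.88 to 0.07), and Pold1, that of polymerase delta, had a value of -0.12 (-0.33 to 0.10).

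Of 7 members for the sliding clamp, its loader and Okazaki fragments 1 rose and 1 fell (14.3% each, below the 21.8% and 20.8% of all tested genes). Pcna, the clamp that tethers polymerases to DNA, was at 23.9, 25.1 and 25.2 FPKM in Ad-Con and 27.0, 26.8 and 28.8 FPKM in Ad-PDK4. It rose without overlap but by little (log2 fold change 0.15, standard error 0.05, limma adjusted p = 0.0476). The call was lost without Ad-Con replicate 1 (0.13), 2 (0.17) or 3 (0.17), without Ad-PDK4 replicate 1 (0.17) or 3 (0.12), and under quantile normalization (0.09), and 46.9% of the transcript is shared with other genes, mainly the pseudogene Pcna-ps2. Rfc3, a clamp loader subunit, was at 3.82, 3.49 and 4.14 FPKM in Ad-Con and 3.36, 2.74 and 2.80 FPKM in Ad-PDK4. It fell with a narrow gap between the groups (log2 fold change -0.36, limma adjusted p = 0.0330). Its call was lost without Ad-Con replicate 1 (-0.35) or 3 (-0.30), without Ad-PDK4 replicate 2 (-0.30) or 3 (-0.32), and on the TPM scale (-0.32).

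The other loader subunits Rfc2, Rfc4 and Rfc5 had log2 fold changes of -0.26, -0.32 and -0.28, and none passed. Rfc2 passed without Ad-PDK4 replicate 2 (-0.35) and Rfc4 without Ad-PDK4 replicate 1 (-0.50), while without Ad-PDK4 replicate 3 the value of Rfc4 was -0.15. Lig1, the ligase that joins Okazaki fragments, was at 8.16, 7.09 and 7.92 FPKM in Ad-Con and 6.67, 6.92 and 5.17 FPKM in Ad-PDK4. Its groups did not overlap, and the log2 fold change of -0.31 did not pass (95% interval -0.58 to -0.04, limma adjusted p = 0.0664) but did without Ad-PDK4 replicate 2 (-0.39) and under quantile normalization (-0.36). Without Ad-PDK4 replicate 3, the lowest library, it was -0.18. Fen1, the flap nuclease of the same step, had 8 to 37 reads a library and a log2 fold change of 0.56 (95% interval -0.55 to 1.67), which was 0.10 with Ad-Con replicate 1 left out and 1.01 with replicate 2 left out. For Fen1, 84.2% of the exon bases lie under other genes on the opposite strand, mainly Gm10143, so its value is uncertain.

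Of the enzymes that supply deoxynucleotides 2 of 4 members fell (50%, against 20.8% of all tested genes). Ribonucleotide reductase makes deoxynucleotides from a large subunit, Rrm1, and a small subunit, Rrm2, whose mRNA is known to peak in S phase. Rrm2 was at 2.64, 2.36 and 3.52 FPKM in Ad-Con and 2.0, 1.22 and 2.09 FPKM in Ad-PDK4. The groups did not overlap, though both were widely spread (2.84 ± 0.605 against 1.77 ± 0.482 FPKM, log2 fold change -0.67, standard error 0.23, limma adjusted p = 0.0469). The call was lost without Ad-Con replicate 1 (-0.71) or 3 (-0.51), without Ad-PDK4 replicate 1 (-0.77) or 2 (-0.44), and on the TPM scale (-0.65).

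Rrm1 was at 12.6, 12.3 and 11.6 FPKM in Ad-Con and 12.9, 12.7 and 13.2 FPKM in Ad-PDK4. All Ad-PDK4 values lay just above the Ad-Con range, and the log2 fold change of 0.09 did not pass (95% interval -0.04 to 0.21). Tk1, the thymidine kinase of the salvage pathway, was at 2.81, 2.66 and 2.61 FPKM in Ad-Con and 1.88, 2.10 and 1.56 FPKM in Ad-PDK4. It fell with a clear gap between the groups (2.69 ± 0.102 against 1.85 ± 0.272 FPKM, log2 fold change -0.53, standard error 0.13, limma adjusted p = 0.0109), and the call held without any library. Tyms, the thymidylate synthase of the de novo pathway, had a log2 fold change of 0.23 (95% interval -0.06 to 0.52) and did not pass.

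Both tested regulators of S phase entry rose (100%, against 21.8% of all tested genes). Only the call on Ccne1 held in every alternative in which the gene was tested. Ccne1 encodes cyclin E1, which activates CDK2 at the G1-to-S transition (chr7:38097984-38107534), and was at 1.83, 1.09 and 1.74 FPKM in Ad-Con and 2.52, 3.09 and 2.74 FPKM in Ad-PDK4. Every Ad-PDK4 library was above every Ad-Con library, with Ad-Con replicate 2 the lowest of all. The mean was 1.55 ± 0.402 FPKM in Ad-Con and 2.78 ± 0.289 FPKM in Ad-PDK4 (log2 fold change 0.83, standard error 0.19, limma adjusted p = 0.0101). This was the largest rise among the members, on 51 to 161 reads a library. The call held without any library.

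E2f1, the activator E2F itself, was at 15.9, 17.4 and 15.3 FPKM in Ad-Con and 18.5, 17.8 and 19.3 FPKM in Ad-PDK4. The groups came close without overlapping (log2 fold change 0.20, standard error 0.07, limma adjusted p = 0.0444). That call was lost without Ad-Con replicate 1 (0.18) or 3 (0.15), without Ad-PDK4 replicate 1 (0.19) or 3 (0.17), and under quantile normalization (0.14). Ccne2, the gene for cyclin E2, was below the level for testing, at 0.323, 0.424 and 0.110 FPKM in Ad-Con and 0.393, 0.327 and 0.415 FPKM in Ad-PDK4, and gave a log2 fold change of 0.41 with no filter (limma adjusted p = 0.515).

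Of 4 chromatin members 1 rose and 1 fell (25% each, near the shares of all tested genes). Chromatin assembly factor 1 (CAF-1) deposits histones behind the fork, and its mid subunit Chaf1b was at 2.71, 2.23 and 2.80 FPKM in Ad-Con and 1.82, 1.98 and 1.58 FPKM in Ad-PDK4. It fell without overlap (log2 fold change -0.50, standard error 0.13, limma adjusted p = 0.0177), and the call was lost without Ad-Con replicate 1 (-0.46) or 3 (-0.44) or Ad-PDK4 replicate 3 (-0.42). Its partner Chaf1a had a log2 fold change of 0.04 (95% interval -0.25 to 0.34), with 52.5% of its exon bases under Ubxn6 on the opposite strand.

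Slbp, which binds the stem-loop of replication-dependent histone mRNAs, was at 3.37, 3.14 and 4.09 FPKM in Ad-Con and 4.36, 4.39 and 4.72 FPKM in Ad-PDK4. It rose without overlap (log2 fold change 0.34, limma adjusted p = 0.0346). Its call was lost without Ad-Con replicate 1 (0.32) or 2 (0.27) or Ad-PDK4 replicate 1 (0.36), 2 (0.36) or 3 (0.31). Uhrf1, which guides DNA methylation to new DNA, had a log2 fold change of -0.18 (-0.52 to 0.17), and 27.6% of its transcript is shared with Gm5648. With the 6 members left out that had at least 25% of their bases overlapped or shared, 3 of 34 tested members rose and 11 fell. These were 8.82% and 32.4%, against 21.8% and 20.8% of all tested genes, and the median log2 fold change was -0.27.

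**Figure D3:**
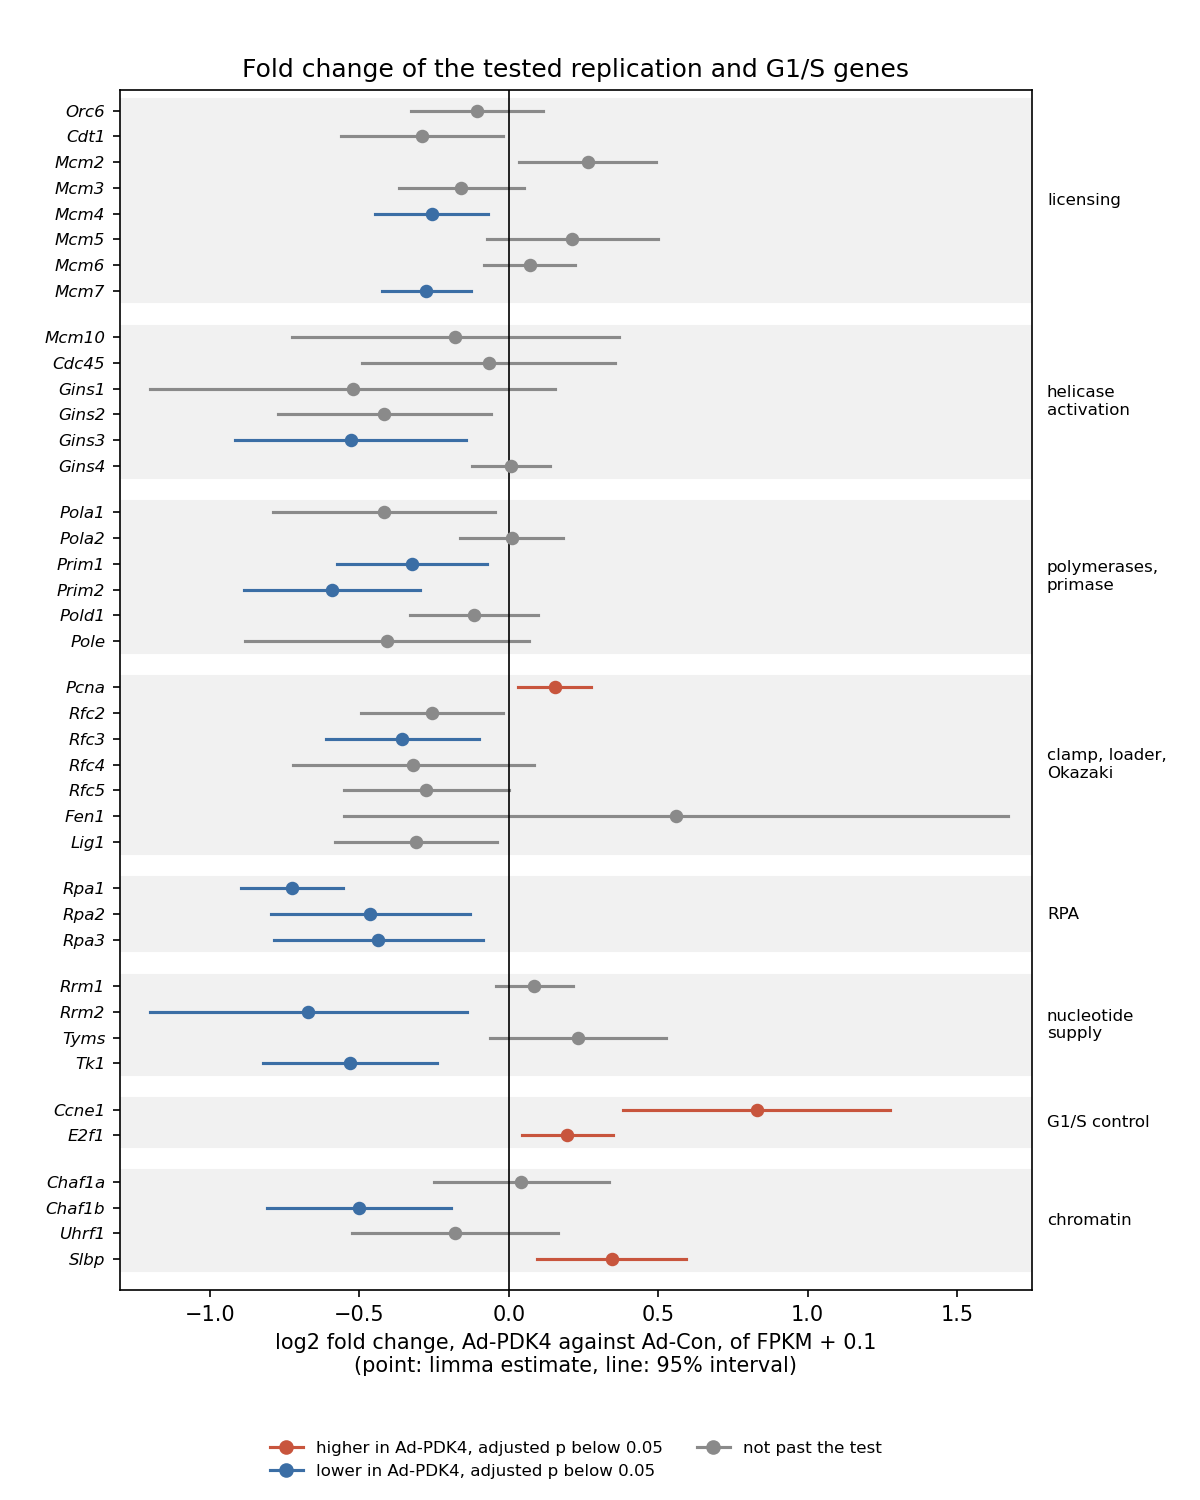
Log2 fold change of each of the 40 tested members, Ad-PDK4 against Ad-Con, as the limma estimate (point) with its 95% interval (line), grouped by role and coloured by the call. All 3 RPA subunits lie below 0, Ccne1 has the largest value above 0, and Fen1, Gins1 and Mcm10 have the widest intervals.

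Where the promoter windows hold E2F letters, the 11 tested members had a median log2 fold change of -0.28. The 22 tested members with a window without these letters had one of -0.09. Tested members that had no window, from Prim2 at -0.59 to Gins4 at 0.01, are in neither group. The medians are a description with no test, and members with the letters spanned both directions, from Gins3 at -0.53 to Mcm5 at 0.21. Neither the gene that fell most, Rpa1, nor the gene that rose most, Ccne1, had these letters in its window.

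Outside the 43, 65 genes of replication and G1/S control were tested in 5 further lists. Of these, 12 were called higher and 13 lower (18.5% and 20.0%, against 21.8% and 20.8% of all tested genes). The median log2 fold change was -0.07. Of the 12 called higher, 8 were G1/S control genes and 3 nucleotide supply genes. In the origin and fork list 0% were called higher and 11.8% lower. For further polymerase and fork enzyme subunits the shares were 10% and 20%, and for chromatin genes 0% and 14.3%. Among 17 tested origin and fork genes none rose and 2 fell, the helicase gene Mcm9 (log2 fold change -0.51, limma adjusted p = 0.0391) and Gmnn (-0.37, limma adjusted p = 0.0235), whose product geminin binds CDT1. Of 10 further polymerase and fork enzyme subunits Pole4 rose (0.46, limma adjusted p = 0.00127), and Pold2 (-0.61, limma adjusted p = 0.0245) and Rnaseh2a (-0.23, limma adjusted p = 0.0398) fell. Of 7 chromatin genes Dnmt1, the maintenance DNA methyltransferase, fell (-0.21, limma adjusted p = 0.0198). The calls on Mcm9, Gmnn, Pold2, Rnaseh2a and Dnmt1 were each lost without some library. For Mcm9 these were all but Ad-Con replicate 3, with values of -0.42 to -0.56. For Rnaseh2a they were all but Ad-PDK4 replicate 2 (-0.17 to -0.26), and for Gmnn Ad-Con replicates 1 (-0.31) and 3 (-0.32) and Ad-PDK4 replicates 2 (-0.36) and 3 (-0.32). For Pold2 they were Ad-Con replicates 2 (-0.57) and 3 (-0.58), and for Dnmt1 Ad-Con replicates 1 (-0.20) and 3 (-0.20) and Ad-PDK4 replicate 1 (-0.21). On the TPM scale Mcm9 (-0.49), Rnaseh2a (-0.19) and Dnmt1 (-0.17) did not pass.

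In nucleotide metabolism 3 of 13 further genes rose and 4 fell (23.1% and 30.8%, against 21.8% and 20.8% of all tested genes). The 2 largest rises of all lists shown here were among them. Samhd1, which hydrolyses deoxynucleotides, was at 6.82, 6.81 and 6.85 FPKM in Ad-Con and 23.8, 24.2 and 26.5 FPKM in Ad-PDK4 (log2 fold change 1.84, limma adjusted p = 3.77e-07). Ctps, which makes CTP, was at 7.82, 7.85 and 8.83 FPKM in Ad-Con and 28.1, 26.2 and 32.8 FPKM in Ad-PDK4 (log2 fold change 1.81, limma adjusted p = 4.55e-06). In both genes the groups lay several-fold apart with little spread. Dctpp1, a nucleotide pyrophosphatase (-0.73, limma adjusted p = 9.49e-04), and Rrm2b, the ribonucleotide reductase subunit that serves cells outside S phase (-0.53, limma adjusted p = 0.00120), fell.

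Of 18 further G1/S control genes 8 rose and 4 fell, which is 44.4% and 22.2%, against 21.8% and 20.8% of all tested genes. Ccnd3 (cyclin D3, 0.78, limma adjusted p = 4.78e-05) and Cdk6 (0.70, limma adjusted p = 1.69e-04) had the largest rises, and Ccna2 (cyclin A2, -1.23, limma adjusted p = 5.66e-04) and Cdk4 (-0.46, limma adjusted p = 8.04e-05) the largest falls. Ccna2 was at 2.88, 2.25 and 3.16 FPKM in Ad-Con and 0.969, 1.19 and 1.18 FPKM in Ad-PDK4. Cdk4 and Cdk6, the kinases that partner the D cyclins, thus moved in opposite directions. Of 7 CDK inhibitors 2 rose and 2 fell (28.6% each, against 21.8% and 20.8% of all tested genes). Cdkn2b (0.45, limma adjusted p = 0.00186) and Cdkn1a (0.23, limma adjusted p = 0.0225) rose, and Cdkn2a (-0.30, limma adjusted p = 0.00475) and Cdkn1b (-0.19, limma adjusted p = 0.0174) fell. The call on Cdkn1a was lost without Ad-Con replicate 1 (0.22) or 2 (0.19) or Ad-PDK4 replicate 1 (0.23) or 2 (0.18), and that on Cdkn1b without Ad-Con replicate 3 (-0.16).

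Of 12 tested genes of mitosis and G2/M 11 fell (91.7%, against 20.8% of all tested genes) and none rose, with a median log2 fold change of -0.78 against -0.26 for the members, and 3 passed with a fold change of at least 2. Mki67 was at 4.74, 3.87 and 5.41 FPKM in Ad-Con and 2.06, 1.61 and 1.65 FPKM in Ad-PDK4 (log2 fold change -1.34, limma adjusted p = 2.58e-04), and Ccnb2 (cyclin B2) fell by 1.19 on the log2 scale (limma adjusted p = 0.00246). Cdk1 did not pass (-0.17, limma adjusted p = 0.142). Ad-Con replicate 2, the lowest Ad-Con library for most members, was also the lowest of its group for 12 of the 12 mitosis genes. The difference between the lists was not tested.

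**Figure D4:**
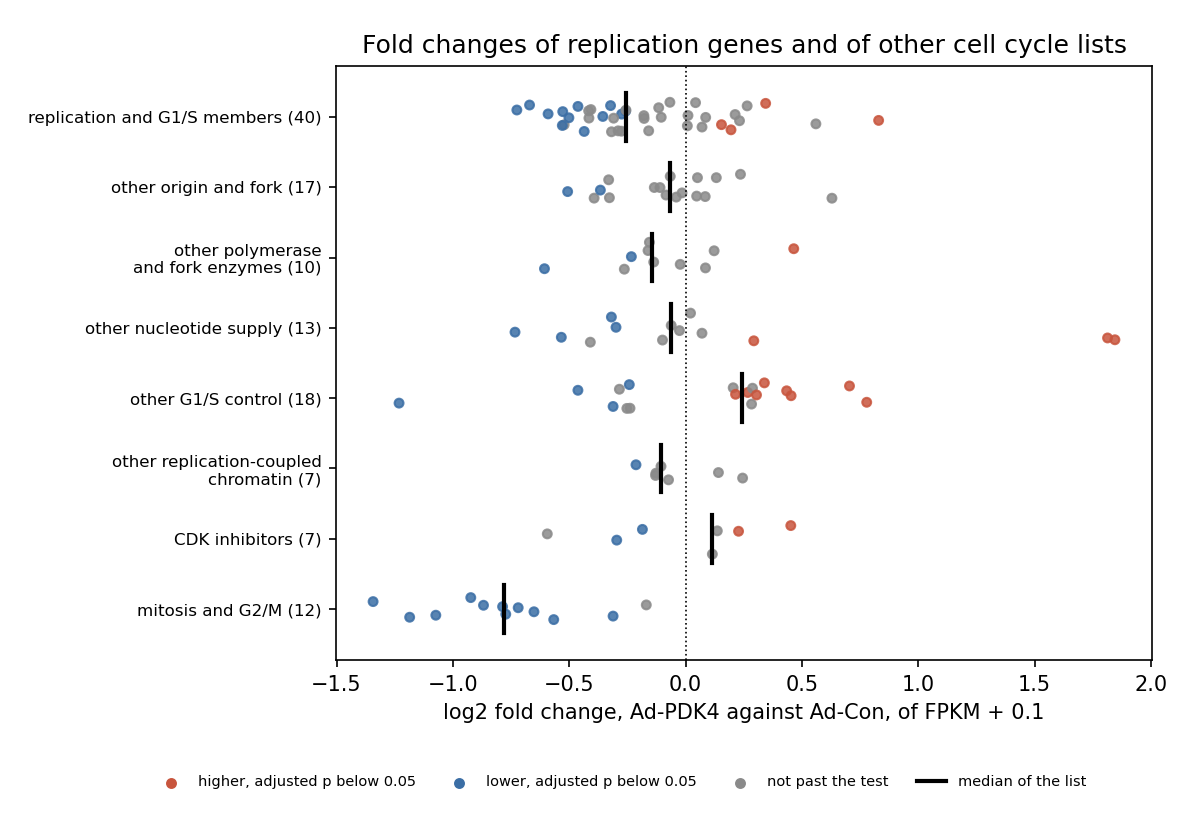
Log2 fold changes of the tested genes of the replication and G1/S list and of 7 other lists, with the number tested in brackets, coloured by the call, and a black bar at each list's median. The members centre on -0.26, the mitosis and G2/M genes on -0.78, and the further G1/S control genes on 0.24.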

How the data were processed

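RNA-seq was measured in 6 libraries, 3 labelled Ad-Con and 3 Ad-PDK4. The authors computed the deposited FPKM per gene and library, without pooling. Per the submitters' processing notes the tools were CASAVA 1.8, fastp, HISAT2 2.0.5, featureCounts 1.5.0-p3 and DESeq2 1.20.0, with the build GRCm39. However, 98.3% of the 54409 identifiers shared with GENCODE M21, and 42 of 43 members, have the same coordinates there, so GRCm38 positions are given as in the table. The labels name a SMARTER kit and the methods a NEBNext Ultra kit. Whether counting used strand is not given in the sources used here.

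FPKM times gene length gave whole reads for 100% of values (tolerance 0.01). The authors' library scaling equalled median-of-ratios size factors (ratio 1). FPKM carries no count variance, so log2(FPKM + 0.1) was tested with limma 3.58.1 (R 4.3.3; trend and robust moderation, no covariate), with Benjamini-Hochberg adjustment over 13423 genes with a mean of at least 0.5 FPKM. The fit was tested on simulated data. Figures used matplotlib 3.10.9. Intervals cover the spread between libraries, and read counts carry counting error only. A count of 0 allows a mean of up to 3 reads.

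Members and lists were chosen with earlier results of these data known, so their counts are descriptions, without set tests. Every member is accounted for, and by rule the largest change of each role and all members past the test with a fold of at least 1.5 are described in full, as are up to 2 rises and 2 falls of each other list. Other members given by library, and Cdk1, were chosen after their values were seen. Replicate numbers did not pair the libraries, since deviations of same-numbered libraries correlated at -0.05, -0.03 and -0.00. Alternatives were other pseudocounts (1, 0.01), no filter, a minimum of 5 FPKM, TPM, quantile normalization, no trend or robust moderation, a replicate block, limma-voom on recovered reads and each library left out. Leaving out overlapped or shared members was chosen after seeing the data. Protein sequences were not used here. Overlap and shared sequence (75-base stretches) were read from GENCODE M21.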

Additional observations from a re-analysis of the deposited data

How the results depend on the processing

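Over the 40 tested members, 2 results turned direction outside the leave-one-out fits, both under quantile normalization, namely Gins4 (-0.041) and Pola2 (-0.045), which also lie near 0 in the reported fit. The median log2 fold change of the members was -0.26, and it was -0.19 with a pseudocount of 1, -0.18 with no filter, and -0.10 with a minimum of 5 FPKM, where 13 members were tested. Left-out libraries gave medians of -0.31 to -0.20. The 4 members called higher became 1 with no filter (2.33% of members, against 10.6% of all genes). With a minimum of 5 FPKM 2 of 13 tested were called higher (15.4% against 28.0%), and under quantile normalization 2 (5% against 18.9%). There was 1 without trend or robust moderation (2.5% against 20.2%), and 2 with the replicate block (5% against 20.6%). Without a library 1 to 3 were called higher, or 2.5% to 7.5% of members, against 17.3% to 20.1% of all genes. The 12 called lower became 5 with no filter (11.6% of members, against 9.93% of all genes). With a minimum of 5 FPKM 5 of 13 tested were called lower (38.5% against 24.3%), and on the TPM scale 7 (17.5% against 18.1%). Without a library 4 to 12 were called lower, or 10% to 30% of members, against 16.1% to 20.1% of all genes. The replicate block gave 2 higher and 11 lower (27.5% lower, against 19.6% of all genes). Limma-voom on recovered reads gave 4 higher (10% against 24.0%) and 18 lower (45% against 23.4%). A left-out library leaves 5 for the fit, with fewer residual degrees of freedom, and the causes of the other shifts were not tested. Log2 fold changes without a library ran from -0.20 to 0.0038 for Cdc45, -0.014 to 0.046 for Gins4, -0.056 to 0.059 for Pola2 and -0.065 to 0.13 for Chaf1a. Depth limits Orc1, Cdc6, Ccne2 and Fen1, which had few reads.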
